A study of Rattus norvegicus with 9 samples.

Results

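Lysosomal enzymes, lysosomal membrane proteins and subunits of the vacuolar proton pump (V-ATPase) were followed in CD68+ cells of the rat during the foreign body reaction (FBR). The set was made of 26 listed lysosomal symbols and of every gene whose symbol starts with Atp6v, and each gene was represented by its brightest probe set, averaged over the arrays, among those that carry no second symbol. In all, 45 of the 14218 genes with a symbol of their own were members, 25 of them from the list and 20 V-ATPase subunits (12 of the V1 sector and 8 of the V0 sector). Npc1 is not analysed here. The symbols of members stood alone on 61 probe sets, of which 1 per member was used, and 14 members had more than 1.

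CD68+ cells of male Wistar rats, whose age is not given in the sources used here, were measured in 3 conditions, on 3 arrays each. FBR CD68+ cells were freed by collagenase and plasmin from tissue deposited on photo-oxidized bovine pericardium patches, which had lain in cages in the peritoneal cavity for 3 days. In vitro activated CD68+ cells were blood CD68+ cells kept for 3 days in serum-containing medium on polytetrafluoroethylene (PTFE) coated with fibrinogen (FG), and blood CD68+ cells were purified and not cultured. Every group was selected with magnetic beads against CD68, a glycoprotein that lies mostly in the lysosomal membrane of monocytes and macrophages, and its RNA was amplified in a double round. No array held cells cultured without FG, so culture and FG contact cannot be told apart. The labels number the arrays of a group as biological replicates and the number of rats behind each is not given, so that n counts arrays. The p-values set each difference against the spread between arrays.

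Lysosomes are the acid compartment in which macrophages break down what they take up. The V-ATPase acidifies it: the cytosolic V1 sector splits ATP and turns a rotor, and the membrane-bound V0 sector carries the protons across. Most soluble hydrolases reach it by a mannose 6-phosphate tag, and the transcription factor TFEB raises many lysosomal genes together through an E-box in their promoters, called the CLEAR element.

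The values are MAS5 signals, the brightness of a probe set on a linear scale after each array was scaled to 1 trimmed mean, which lay between 498.9 and 501.5 here. The median signal lay between 69.5 and 77.3 in FBR cells, between 87.0 and 110.1 in in vitro activated cells and between 97.3 and 102.8 in blood cells. Arrays of 1 group correlated at 0.931 to 0.976 over all probe sets. In the deposited values 15.45% of the 279891 cells stood as 6- or 7-digit whole numbers and were read as signals without their decimal point. Among the 405 cells of members 204 were of this kind, 197 stood as deposited, and 4 on 3 members could not be read without doubt and were dropped (Gaa on FBR replicate 2, Atp6v0a4 on FBR replicate 3, and Smpd1 on in vitro activated replicate 1 and on blood replicate 1). Differences are log2 fold changes of the signal plus 16 from limma, given with their standard error after the ± sign, and understate the change of low signals. A gene passed at an adjusted p under 0.05 over all probe sets.

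The groups differed in cell type markers. The summed signal of 7 B cell markers lay between 1239 and 1767 in FBR cells, 595 and 2400.4 in in vitro activated cells, and 39219 and 54614 in blood cells. Most of the FBR sums came from Cd22, with signals of 1609, 1267 and 1189. The other 6 stayed below 100 on every FBR array, whereas no marker did so in in vitro activated cells. Relative to blood 7 of 7 fell in either condition. For 8 NK cell markers the sums were 283 to 488, 181 to 315 and 2524 to 6584 in FBR, in vitro activated and blood cells. In FBR cells 7 of the 8 stayed below a signal of 100 on every array, and likewise 7 of 8 in in vitro activated cells; 7 were called lower in FBR and 6 in in vitro activated cells. Of 10 T cell markers, whose sums were 1499 to 2572, 632 to 2689 and 5941 to 6762 in the same order, 6 fell in each. The sum of 8 macrophage markers was 84797 to 104263 in FBR, 63482 to 89720.3 in in vitro activated and 29643 to 46803 in blood cells, and 6 rose in FBR and 3 in in vitro activated cells. For FBR minus in vitro activated cells 3 of 6 neutrophil markers were called higher, with log2 fold changes of 4.38 for S100a9, 2.77 for S100a8 and 1.90 for Csf3r. The other 3, Camp, Mmp8 and Cxcr2, were not called and stayed below a signal of 100 on every array of the 3 groups. The sums of the 6 were 2292 to 3055 in FBR, 207 to 775 in in vitro activated and 578 to 2222 in blood cells. For FBR minus in vitro activated cells 3 of the 7 B cell markers were lower and 1, Cd22, higher. Of 8 fibroblast markers 3 collagen genes (Col1a1, Col1a2 and Col3a1) rose in FBR cells relative to blood, and 1, Thy1, fell (-2.66, adjusted p = 0.0016). The sums of the 8 were 419 to 1325 in FBR, 226 to 476 in in vitro activated and 533 to 829.5 in blood cells. Most of the blood sums came from Thy1, with signals of 459, 403 and 653. Of 7 platelet and red cell markers 4 fell and 1, Pf4, rose in FBR cells relative to blood. In in vitro activated cells 3 fell. Their sums were 14298 to 21424, 3902 to 8161 and 7015 to 15196 in FBR, in vitro activated and blood cells. Of 6 mesothelial markers 2, Msln and Krt18, rose in FBR cells and none was called in in vitro activated cells. FBR replicate 1 had the highest fibroblast sum (1325) and mesothelial sum (827) of its group. In cell mixtures of this kind fewer cells of a type and less RNA per cell cannot be told apart, and the part of the marker differences in the results below was not tested.

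Blood replicate 2 stood apart from the other blood arrays. It had the lowest signal of the 3 blood arrays in 34 of the 44 members measured on all of them (77.3%), against 44.5% of all genes, and the median member lay at -0.44 relative to the blood mean on the log2 scale, against 0.29 on replicate 1 and 0.15 on replicate 3. Its macrophage marker sum was 29643, against 46803 and 45057 on replicates 1 and 3, its neutrophil marker sum 578 against 2222 and 2098, and its NK marker sum 6584 against 2524 and 3801. In vitro activated replicate 2 was the lowest of its group in 26 of 44 members (59.1%, against 38.6% of all genes) and the highest in 1, and replicate 3 the highest in 30. FBR replicate 3 was the lowest of its group in 22 of 43 (51.2%, against 34.7%). Counts are therefore also given without each of these 3 arrays, a choice made after seeing the data.

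Lysosomal and V-ATPase genes were mostly higher in both kinds of activated cells than in blood cells. In FBR cells 29 of 45 members rose and 1 fell relative to blood, beside 14.6% of all genes called higher and 19.2% called lower. In in vitro activated cells 26 of 45 rose and 2 fell, beside 15.4% and 12.2% of all genes. The median member had a log2 fold change of 1.17 in FBR cells and of 1.34 in in vitro activated cells, against medians of -0.09 and 0.13 over all genes tested. Both comparisons use the same blood arrays and are not independent. Without blood replicate 2, 23 members rose and 1 fell in FBR cells, and 24 rose and 2 fell in in vitro activated cells. Without in vitro activated replicate 2 these counts were 25 and 1 in FBR and 28 and 2 in in vitro activated cells. Without FBR replicate 3 they were 24 and 2 in FBR and 24 and 2 in in vitro activated cells.

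**Figure D1:**
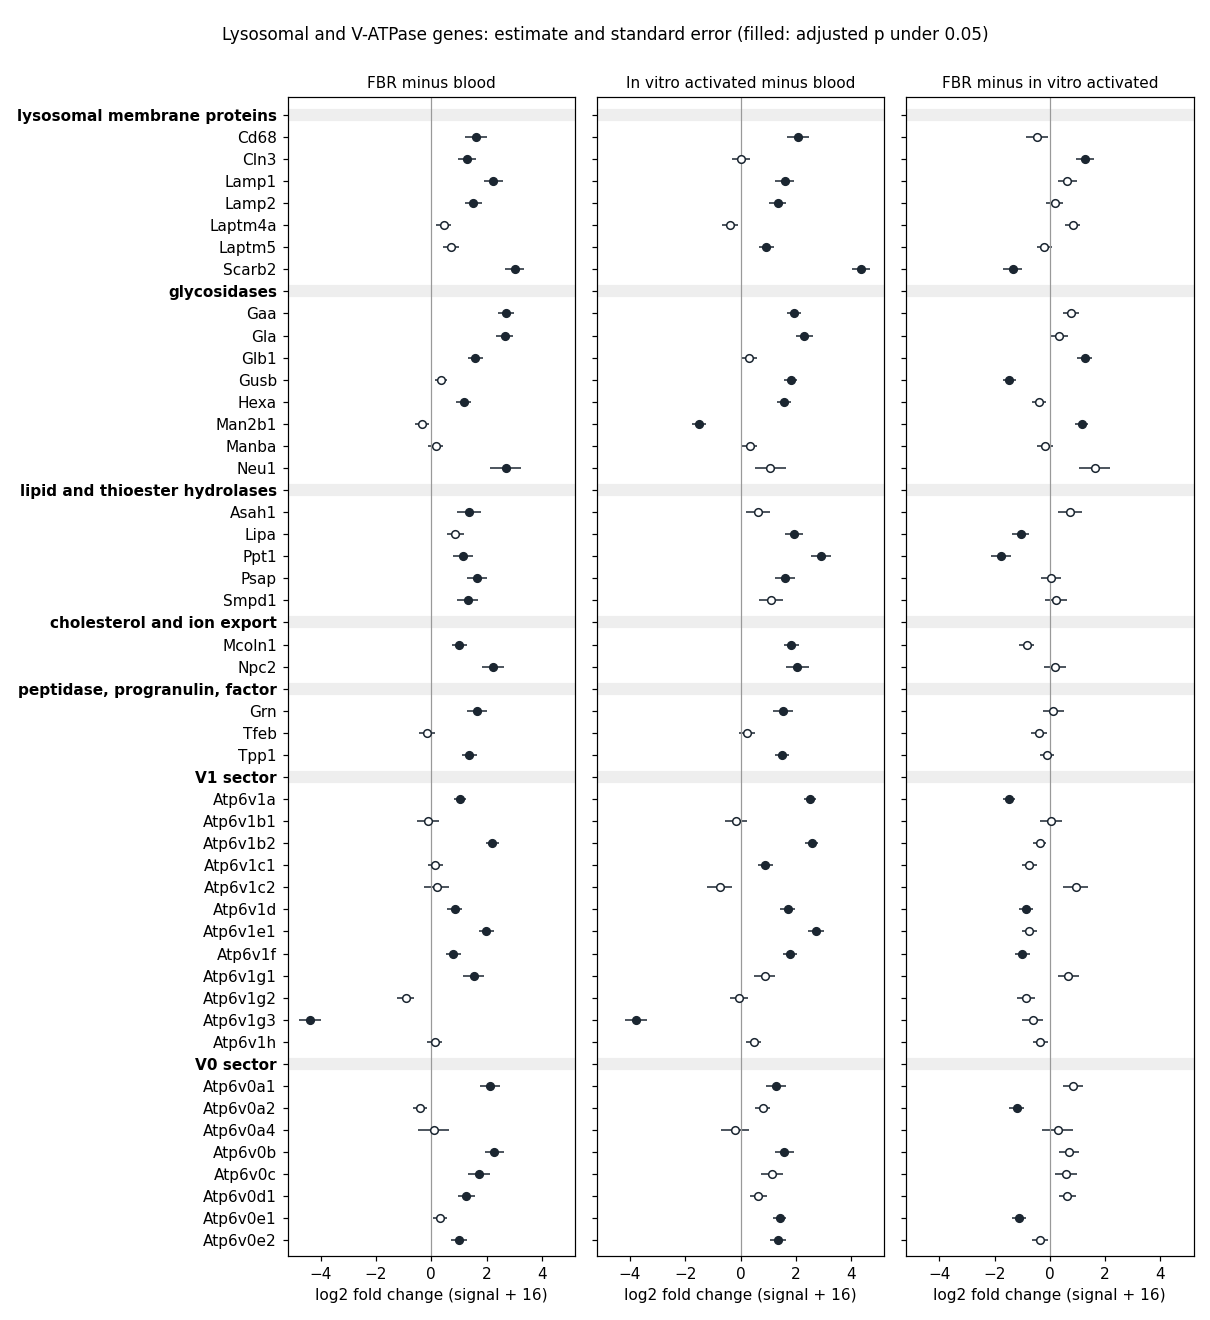
Log2 fold change (points) with its standard error (bars) for the 45 members, by role, in FBR minus blood, in vitro activated minus blood and FBR minus in vitro activated cells. Filled points passed at an adjusted p under 0.05: 29 higher and 1 lower, 26 higher and 2 lower, and 3 higher and 9 lower.

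Between FBR and in vitro activated cells the shares of members called were near those of all genes. Of 45 members, 3 were higher in FBR cells (Cln3, Glb1 and Man2b1) and 9 were lower (Scarb2, Gusb, Lipa, Ppt1, Atp6v1a, Atp6v1d, Atp6v1f, Atp6v0a2 and Atp6v0e1). That is 6.67% and 20% of them, beside 8.88% and 16.7% of all genes. The median was -0.11, against -0.23 over all genes. These counts depended on the scaling of the arrays. The median of all probe sets was -0.24 in this comparison as deposited and 0.10 after each array was centred on its median, and 8 members were then higher and 4 lower. Cln3, Glb1 and Man2b1 stayed higher, and Gusb, Ppt1, Atp6v1a and Atp6v0a2 stayed lower, after centring and after quantile normalization, whereas Scarb2, Lipa, Atp6v1d, Atp6v1f and Atp6v0e1 did not pass after centring. Without blood replicate 2 the counts were 5 higher and 11 lower. They were 2 and 7 without in vitro activated replicate 2, and 2 and 6 without FBR replicate 3. In every comparison, an array outside the 2 groups compared leaves the difference itself unchanged. It bears on a call only through the shared estimate of the spread and the adjustment, also for the genes below. Of 6 neutrophil markers 3 also differed between FBR and in vitro activated cells, and their part in these counts was not tested.

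**Figure D2:**
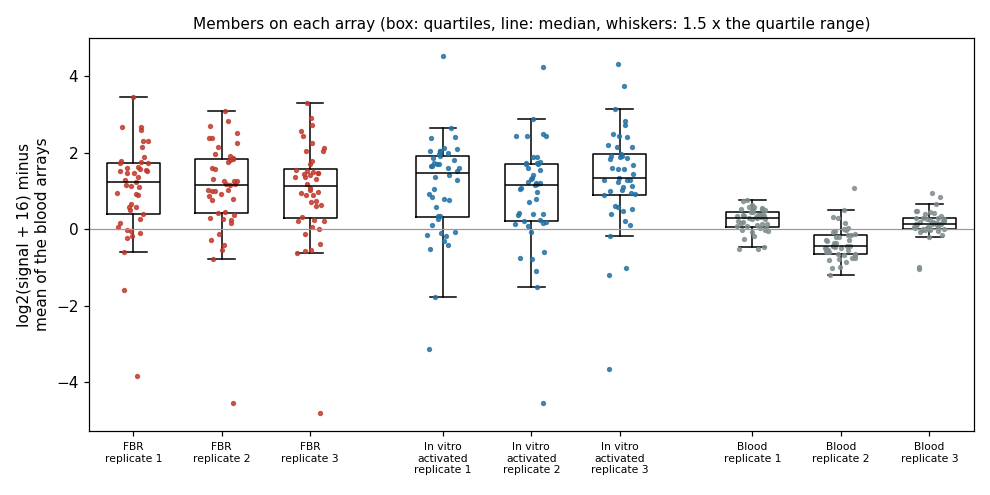
Log2 of the signal plus 16 of each member minus its mean over the blood arrays, for the 9 arrays; each point is a member, boxes give quartiles and median. The medians are 1.24, 1.15 and 1.13 on the FBR arrays, 1.47, 1.15 and 1.32 on the in vitro activated arrays, and 0.29, -0.44 and 0.15 on the blood arrays.

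Promoter letters of the members were read from RefSeq on the GRCr8 build, in windows from 250 bases before to 50 after each start site. A window was found for 37 of the 45 members. The E-box CACGTG stood in 7 of them (18.9%), against 6.42% of all 33469 windows and 8.62% of those of measured genes. The longer GTCACGTG, searched on both strands, stood in the same 7 (18.9%, against 1.85% of all windows and 3.24% of those of measured genes), and TCACGTGA in 5 (13.5%, against 0.777% and 1.38%). Both longer forms hold CACGTG, and CACGTG and TCACGTGA read the same on either strand. The CLEAR element named above is known from promoters of lysosomal genes. The members were chosen as such genes, so the larger shares are given for description and not as independent evidence. The 7 stretches are shown because they hold every such match among the members, from 20 bases before the first to 20 after the last or to the window's end, on the gene's own strand, with the matched letters in capitals.
Lamp1: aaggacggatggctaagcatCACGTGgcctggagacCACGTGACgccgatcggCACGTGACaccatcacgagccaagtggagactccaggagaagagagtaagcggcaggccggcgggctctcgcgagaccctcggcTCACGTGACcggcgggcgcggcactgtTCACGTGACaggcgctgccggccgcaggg
Cln3: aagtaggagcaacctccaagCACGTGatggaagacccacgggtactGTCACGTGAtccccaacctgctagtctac
Mcoln1: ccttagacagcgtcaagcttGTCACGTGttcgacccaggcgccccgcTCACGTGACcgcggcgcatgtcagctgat
Glb1: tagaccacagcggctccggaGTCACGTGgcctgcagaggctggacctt
Gaa: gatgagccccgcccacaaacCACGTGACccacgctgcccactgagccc
Atp6v0d1: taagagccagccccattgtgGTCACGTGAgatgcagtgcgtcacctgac
Atp6v0e1: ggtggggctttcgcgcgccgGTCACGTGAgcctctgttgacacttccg
Lamp1 (chr16:83075074-83075266, minus strand) held 5 copies of CACGTG. Cln3 (chr1:190597941-190598015, minus strand) and Mcoln1 (chr12:6358214-6358289, plus strand) held 2 each. Glb1 (chr8:122963596-122963643, plus strand), Gaa (chr10:105028268-105028315, plus strand), Atp6v0d1 (chr19:50357274-50357322, minus strand) and Atp6v0e1 (chr10:17007107-17007154, minus strand) held 1 each. Of these 7 genes, 6 rose in FBR cells relative to blood (all but Atp6v0e1), and 4 rose in in vitro activated cells (Lamp1, Mcoln1, Gaa and Atp6v0e1). Among all members 64.4% and 57.8% rose, so nothing particular to the 7 is read from these counts. A match describes the letters only and does not show that a factor binds there.

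**Figure D3:**
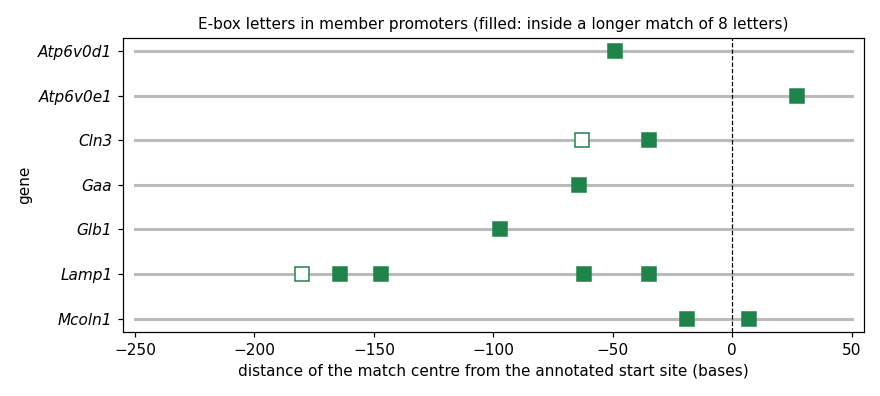
Position of each CACGTG match (squares, placed at the centre of the match) relative to the annotated start site, in bases, in the promoter windows of the 7 members with one. Filled squares lie inside a longer match of 8 letters; Lamp1 has 5 matches, Cln3 and Mcoln1 have 2 each.

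Of 7 lysosomal membrane proteins, 5 rose in FBR cells and 5 in in vitro activated cells. Scarb2, the receptor that carries glucocerebrosidase to the lysosome, had signals of 4569, 2711 and 3126 in FBR cells, 9661, 7834 and 8341 in in vitro activated cells and 628, 253 and 409.8 in blood cells. The groups did not overlap, with the in vitro activated arrays on top. Relative to blood its log2 fold change was 3.02 ± 0.34 (adjusted p = 0.00013) in FBR cells and 4.36 ± 0.34 (adjusted p = 3.2e-05) in in vitro activated cells, while FBR minus in vitro activated cells gave -1.34 ± 0.34 (adjusted p = 0.018). The last of these did not pass without any 1 of FBR replicates 2 and 3 and in vitro activated replicate 1 (log2 fold changes -1.28 to -1.18, adjusted p = 0.055 to 0.075). The study lists Scarb2 among genes chosen on these arrays, so its increase is not independent evidence.

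Lamp1, with Lamp2 the main glycoprotein of the lysosomal membrane, had signals of 17397, 18147 and 14420.3 in FBR cells, 13684, 10214 and 8574 in in vitro activated cells and 4822, 2074 and 4296 in blood cells. It rose by 2.24 ± 0.34 (adjusted p = 0.00074) in FBR and by 1.60 ± 0.34 (adjusted p = 0.0069) in in vitro activated cells. Its 2 other probe sets were dim, with signals of at most 155 on any array. Of these, 1 had -0.93 ± 0.28 (adjusted p = 0.039) in FBR minus in vitro activated cells. Lamp2 also rose, by 1.52 and 1.34 in FBR and in vitro activated cells on the log2 scale. Cd68, the gene product used for the sort, had signals of 20075, 24802 and 20469.5 in FBR cells, 28965, 23892 and 38245 in in vitro activated cells and 11741, 3524 and 8449.5 in blood cells, with blood replicate 2 the lowest of the 9. As the sort gene it is given for description, with log2 fold changes of 1.62 and 2.08 against blood. Its call in FBR cells was lost after quantile normalization, at 1.11 (adjusted p = 0.076). With restored cells missing, Cd68 kept only blood replicate 1, its highest blood array. The log2 fold changes against that 1 array were 0.88 in FBR and 1.34 in in vitro activated cells.

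Cln3, a membrane protein of lysosomes and endosomes that is mutated in juvenile Batten disease, was the member of this group that was higher in FBR cells than in both other conditions. It had signals of 484, 478 and 492 in FBR cells, 178, 179 and 223 in in vitro activated cells and 248, 105 and 258 in blood cells, and the in vitro activated and blood arrays overlapped. Its log2 fold change was 1.28 ± 0.32 (adjusted p = 0.011) against blood and 1.27 ± 0.32 (adjusted p = 0.018) against in vitro activated cells, and that of in vitro activated against blood cells 0.02 ± 0.32 (adjusted p = 0.98). The difference between FBR and in vitro activated cells did not pass without any 1 of FBR replicates 2 and 3 and in vitro activated replicates 1 and 2 (log2 fold changes 1.21 to 1.28, adjusted p = 0.051 to 0.057). Of its other 2 probe sets, 1 was called higher in FBR cells against blood (1.18 ± 0.24 (adjusted p = 0.0036)) and the other against in vitro activated cells (1.24 ± 0.29 (adjusted p = 0.012)).

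The LAPTM proteins, small proteins that span the lysosomal membrane, showed less. Laptm4a had signals of 6911, 8256 and 10243 in FBR cells, 4268, 3652 and 6668 in in vitro activated cells and 6759.9, 5594 and 6097 in blood cells. Its log2 fold changes were 0.45, -0.38 and 0.83 in FBR minus blood, in vitro activated minus blood and FBR minus in vitro activated cells, and none passed. When in vitro activated replicate 3 was left out the last of them did (1.08, adjusted p = 0.02). Laptm5, found mainly in blood-forming cells, rose by 0.93 ± 0.28 (adjusted p = 0.034) in in vitro activated cells. That call did not hold without any 1 of FBR replicate 3, in vitro activated replicates 1 and 3 and blood replicate 2 (log2 fold changes 0.68 to 0.97, adjusted p = 0.052 to 0.093). In FBR minus blood cells its value was 0.72 ± 0.28 (adjusted p = 0.074), whereas its second probe set was called, with 1.40 ± 0.42 (adjusted p = 0.027).

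Among 8 glycosidases, which take sugars off glycans, glycogen and glycolipids, 5 rose in FBR cells, and in in vitro activated cells 4 rose and 1 fell. Gaa, the acid alpha-glucosidase that degrades glycogen, had signals of 2421 and 2521 on FBR replicates 1 and 3, 1546, 1389 and 1431 in in vitro activated cells and 460.4, 279.6 and 382 in blood cells, without overlap. It rose by 2.70 ± 0.28 (adjusted p = 0.00014) in FBR cells, from 2 arrays, and by 1.94 ± 0.25 (adjusted p = 0.00064) in in vitro activated cells. Its difference between FBR and in vitro activated cells was 0.76 ± 0.28 (adjusted p = 0.085). Without blood replicate 2, which is not part of this comparison, it passed at the same size (0.76, adjusted p = 0.047). Gla, the alpha-galactosidase that degrades globotriaosylceramide, had signals of 7747, 9192 and 7585 in FBR cells, 5154, 6969 and 7226 in in vitro activated cells and 1899.5, 865 and 1266 in blood cells. It rose by 2.66 ± 0.31 (adjusted p = 0.00015) and 2.31 ± 0.31 (adjusted p = 0.0005) in FBR and in vitro activated cells, and its FBR and in vitro activated arrays stood apart by less than the test could call (0.35, adjusted p = 0.45). Hexa, the alpha subunit of hexosaminidase A, rose in both as well, by 1.17 and 1.57.

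Neu1 and Glb1, the sialidase and the beta-galactosidase that lie in 1 complex with protective protein/cathepsin A, rose in FBR cells and did not pass in in vitro activated cells. Neu1 had signals of 779, 1987 and 2293 in FBR cells, 340.4, 447 and 742 in in vitro activated cells and 289, 87.8 and 406 in blood cells. FBR replicate 1 lay far below the other FBR arrays and close to the top in vitro activated array. In in vitro activated minus blood cells Neu1 had 1.07 ± 0.56 (adjusted p = 0.2), a wide error. Neu1 rose by 2.70 ± 0.56 (adjusted p = 0.0045) against blood, and its value against in vitro activated cells was 1.63 ± 0.56 (adjusted p = 0.064), which passed without FBR replicate 1 (2.10, adjusted p = 0.034) and without blood replicate 2 (1.63, adjusted p = 0.029). Its second probe set gave 2.96 ± 0.32 (adjusted p = 0.00011) against blood and 2.21 ± 0.32 (adjusted p = 0.0012) against in vitro activated cells. Glb1 had signals of 3924, 3419 and 3075 in FBR cells, 1381, 1263 and 1656 in in vitro activated cells and 1473, 804 and 1247 in blood cells, with all FBR arrays above all others. Its log2 fold change was 1.59 ± 0.27 (adjusted p = 0.0016) in FBR minus blood and 1.27 ± 0.27 (adjusted p = 0.0087) in FBR minus in vitro activated cells, against 0.32 ± 0.27 (adjusted p = 0.45) in in vitro activated minus blood cells.

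Gusb and Man2b1 ran apart from these. Gusb, the beta-glucuronidase that degrades glycosaminoglycans, had signals of 2189.7, 2002 and 1800.1 in FBR cells, 5634, 5050.5 and 5897 in in vitro activated cells and 1859, 1357 and 1486 in blood cells. Only the in vitro activated arrays stood apart, with a log2 fold change of 1.82 ± 0.23 (adjusted p = 0.00036) against blood, and FBR cells lay -1.46 ± 0.23 (adjusted p = 0.0017) relative to them and 0.35 ± 0.23 (adjusted p = 0.29) relative to blood. The study lists Gusb, chosen on these arrays, so its increase is not independent evidence. Man2b1, the lysosomal alpha-mannosidase that trims glycoprotein glycans, had signals of 6808, 5317 and 4821 in FBR cells, 2067, 2489 and 3082 in in vitro activated cells and 7052, 7980.1 and 6356 in blood cells. It fell in in vitro activated cells, with -1.49 ± 0.25 (adjusted p = 0.0019). FBR cells exceeded in vitro activated cells by 1.15 ± 0.25 (adjusted p = 0.0092). In FBR minus blood cells its value was -0.34 ± 0.25 (adjusted p = 0.35), near 0 after median centring (0.02) and called lower after quantile normalization (-0.76 (adjusted p = 0.049)). A second, dim probe set of Man2b1 gave -1.81 ± 0.40 (adjusted p = 0.0059) in FBR minus blood cells and 0.04 ± 0.40 (adjusted p = 0.96) in FBR minus in vitro activated cells, so that the probe sets differed on both. Manba, the beta-mannosidase, passed in no comparison, with log2 fold changes of 0.16, 0.33 and -0.17 in FBR minus blood, in vitro activated minus blood and FBR minus in vitro activated cells.

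**Figure D4:**
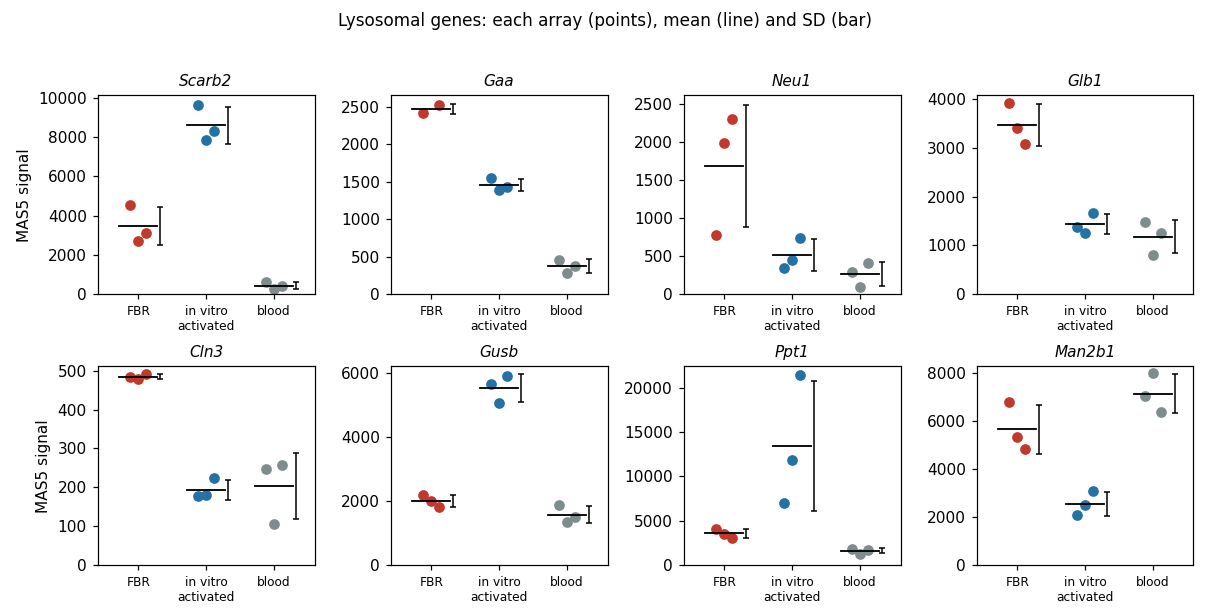
MAS5 signal of 8 lysosomal genes on each array (points) in FBR, in vitro activated and blood cells, with the mean (line) and SD (bar), each axis from 0; Gaa has 2 FBR arrays. Gaa, Neu1, Glb1 and Cln3 are highest in FBR cells, Scarb2, Gusb and Ppt1 in in vitro activated cells, and Man2b1 is lowest in in vitro activated cells.

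Of the 5 genes for lipid, sphingolipid and thioester breakdown, 4 rose in FBR cells and 3 in in vitro activated cells. Ppt1, the thioesterase that takes palmitate off proteins, had signals of 4089, 3532 and 3078 in FBR cells, 6979, 11862 and 21383 in in vitro activated cells and 1776, 1300.3 and 1747 in blood cells. The in vitro activated arrays spread widely yet all lay above the FBR arrays, which all lay above blood. Ppt1 rose by 1.15 ± 0.37 (adjusted p = 0.04) in FBR and by 2.91 ± 0.37 (adjusted p = 0.00041) in in vitro activated cells, and the difference of FBR minus in vitro activated cells was -1.77 ± 0.37 (adjusted p = 0.0077). The increase in FBR cells did not pass without any 1 of FBR replicates 1, 2 and 3, in vitro activated replicate 2 and blood replicates 1, 2 and 3 (log2 fold changes 1.00 to 1.25, adjusted p = 0.054 to 0.12).

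Lipa, the acid lipase that frees cholesterol and fatty acids from lipoprotein lipids, had signals of 9745, 7469 and 7145 in FBR cells, 14582, 16141 and 20197 in in vitro activated cells and 6304, 2758 and 4853 in blood cells. Its order was that of Ppt1, without overlap of the groups. It had 0.87 ± 0.32 (adjusted p = 0.066) in FBR minus blood cells, which passed without blood replicate 1 (1.13, adjusted p = 0.03), and rose by 1.93 ± 0.32 (adjusted p = 0.0018) in in vitro activated cells. In FBR minus in vitro activated cells it had -1.06 ± 0.32 (adjusted p = 0.039), a call lost without any 1 of FBR replicates 1, 2 and 3, in vitro activated replicates 1, 2 and 3 and blood replicate 3 (log2 fold changes -1.20 to -0.93, adjusted p = 0.053 to 0.12). Psap, the precursor of the saposins that present sphingolipids to their hydrolases, had signals of 18445, 23591 and 17338 in FBR cells, 15123, 16660.3 and 27310.3 in in vitro activated cells and 9123, 3695 and 7113 in blood cells. It rose by 1.66 ± 0.37 (adjusted p = 0.0061) and 1.61 ± 0.37 (adjusted p = 0.0095) in FBR and in vitro activated cells.

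The ceramide and sphingomyelin hydrolases were called in FBR cells, and neither call held with each array left out. Asah1, the acid ceramidase, had signals of 6168, 3755 and 4789 in FBR cells, 2394, 2464 and 4109.5 in in vitro activated cells and 3161, 2283 and 900.2 in blood cells, with blood replicate 3 far below the others. Its log2 fold change was 1.36 ± 0.44 (adjusted p = 0.04) in FBR minus blood cells and did not pass without any 1 of FBR replicates 1, 2 and 3, in vitro activated replicate 2 and blood replicates 2 and 3 (log2 fold changes 0.84 to 1.53, adjusted p = 0.053 to 0.13). A second probe set of Asah1 gave 1.17 ± 0.34 (adjusted p = 0.024) in that comparison. Smpd1, the acid sphingomyelinase, had 1.31 ± 0.39 (adjusted p = 0.036) in FBR minus blood cells, from 2 blood arrays, and 1.09 ± 0.43 (adjusted p = 0.11) in in vitro activated minus blood cells, from 2 arrays of each. The first did not pass without any 1 of FBR replicates 1, 2 and 3, in vitro activated replicate 2 and blood replicate 2 (log2 fold changes 0.66 to 1.37, adjusted p = 0.053 to 0.19). The lowest of these values, without blood replicate 2, rests on 1 blood array, which is assumed to vary like the arrays of the other groups. The second comparison passed without blood replicate 3 (1.74, adjusted p = 0.019), where blood replicate 2 alone, the array that stood apart, represents blood under the same assumption.

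Cholesterol and ion export was represented by Npc2 and Mcoln1, and both rose in both conditions. Npc2, the soluble protein that hands cholesterol to the lysosomal membrane, had signals of 33438, 35304 and 27742 in FBR cells, 27975, 22449.5 and 36004 in in vitro activated cells and 9829, 3366 and 9330.0 in blood cells. It rose by 2.24 ± 0.40 (adjusted p = 0.0018) and 2.06 ± 0.40 (adjusted p = 0.0042) in FBR and in vitro activated cells. Mcoln1, the lysosomal cation channel mucolipin, had signals of 514, 609.8 and 497 in FBR cells, 847, 895 and 1199 in in vitro activated cells and 288, 187 and 321 in blood cells, without overlap. It rose by 1.01 ± 0.27 (adjusted p = 0.016) in FBR cells, which did not pass without FBR replicate 2 (log2 fold change 0.92, adjusted p = 0.064), and by 1.84 ± 0.27 (adjusted p = 0.00086) in in vitro activated cells. Its value in FBR minus in vitro activated cells was -0.83, just outside the threshold, and it passed without blood replicate 2 (-0.83, adjusted p = 0.026).

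The peptidase Tpp1, which cuts tripeptides off proteins, rose by 1.38 ± 0.26 (adjusted p = 0.0027) in FBR and by 1.5 ± 0.26 (adjusted p = 0.0024) in in vitro activated cells. Grn, which encodes progranulin, a secreted and lysosomal glycoprotein, had signals of 20382, 24250.3 and 19449 in FBR cells, 20262, 15004 and 24295 in in vitro activated cells and 9997, 3699 and 8266 in blood cells. It rose by 1.66 ± 0.37 (adjusted p = 0.0063) and 1.53 ± 0.37 (adjusted p = 0.013) in FBR and in vitro activated cells. Tfeb, the transcription factor named above, passed in none of the comparisons. It had signals of 569, 468 and 522 in FBR cells, 548, 678 and 861 in in vitro activated cells and 784, 378 and 639 in blood cells, and the groups overlapped. Its log2 fold changes were -0.15 ± 0.30 (adjusted p = 0.78), 0.24 ± 0.30 (adjusted p = 0.61) and -0.39 ± 0.30 (adjusted p = 0.4) in FBR minus blood, in vitro activated minus blood and FBR minus in vitro activated cells, and the first changed sign under both other scalings (0.16 and 0.22). TFEB is regulated largely by phosphorylation and nuclear entry, which arrays do not measure.

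In the V1 sector 6 of 12 subunits rose and 1 fell in FBR cells, and 6 rose and 1 fell in in vitro activated cells. Subunits A and B form the ring that splits ATP. Atp6v1a, subunit A, had signals of 5291, 6247 and 5696 in FBR cells, 14481, 15008 and 18387 in in vitro activated cells and 2833, 2675 and 2817 in blood cells, without overlap. It rose by 1.04 ± 0.22 (adjusted p = 0.0044) in FBR and by 2.51 ± 0.22 (adjusted p = 5.2e-05) in in vitro activated cells, and lay at -1.47 ± 0.22 (adjusted p = 0.0013) in FBR minus in vitro activated cells. A second probe set of Atp6v1a gave 2.24 ± 0.27 (adjusted p = 0.0003) and -2.30 ± 0.27 (adjusted p = 0.00039) in the last 2 comparisons and -0.06 ± 0.27 (adjusted p = 0.9) in FBR minus blood cells, so the increase in FBR cells rested on 1 probe set.

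Atp6v1b2, the widely expressed form of subunit B, had signals of 12013, 12986 and 12776 in FBR cells, 14459, 15095 and 19281 in in vitro activated cells and 3086, 2439 and 2610.4 in blood cells. It rose by 2.21 ± 0.23 (adjusted p = 7.4e-05) in FBR and by 2.57 ± 0.23 (adjusted p = 5.5e-05) in in vitro activated cells, and is listed by the study from these arrays, so this is not independent evidence. Its second probe set was also called lower in FBR minus in vitro activated cells, with -0.81 ± 0.25 (adjusted p = 0.044), where the first had -0.36 ± 0.23 (adjusted p = 0.29). Atp6v1b1, its counterpart of kidney and inner ear, stayed below a signal of 100 on every array. Atp6v1e1, a peripheral stalk subunit, had signals of 5245, 7019 and 6890.2 in FBR cells, 9957, 8568 and 13992 in in vitro activated cells and 1983, 1236 and 1626 in blood cells, again without overlap, and rose by 1.99 ± 0.28 (adjusted p = 0.0005) and 2.73 ± 0.28 (adjusted p = 0.00012) in FBR and in vitro activated cells.

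The central stalk subunits Atp6v1d and Atp6v1f rose in both conditions, less so in FBR cells, which lay below in vitro activated cells. Atp6v1d had log2 fold changes of 0.85, 1.71 and -0.86 in FBR minus blood, in vitro activated minus blood and FBR minus in vitro activated cells. The first did not pass without any 1 of FBR replicates 2 and 3 and blood replicates 1 and 2 (log2 fold changes 0.63 to 0.90, adjusted p = 0.061 to 0.12), and the last did not pass without any 1 of FBR replicates 1, 2 and 3, in vitro activated replicates 1, 2 and 3 and blood replicate 1 (log2 fold changes -0.94 to -0.72, adjusted p = 0.06 to 0.14). Atp6v1f had 0.79, 1.79 and -1.0 in the same comparisons. The first of these, just inside the threshold, did not pass without any 1 of FBR replicates 1, 2 and 3, in vitro activated replicate 2 and blood replicates 2 and 3 (log2 fold changes 0.56 to 0.88, adjusted p = 0.063 to 0.14), and the last did not pass without any 1 of FBR replicates 1, 2 and 3 and in vitro activated replicate 1 (log2 fold changes -1.04 to -0.84, adjusted p = 0.055 to 0.091). Atp6v1c1, which clamps the stalks, rose in in vitro activated cells by 0.90 ± 0.27 (adjusted p = 0.034), a call lost without any 1 of FBR replicates 2 and 3, in vitro activated replicates 1, 2 and 3 and blood replicates 1 and 3 (log2 fold changes 0.67 to 0.96, adjusted p = 0.053 to 0.11). In FBR minus in vitro activated cells it passed without blood replicate 2 (-0.75, adjusted p = 0.03). Atp6v1g1, a further stalk subunit, rose by 1.53 ± 0.38 (adjusted p = 0.011) in FBR cells, and Atp6v1h, the regulatory subunit, passed in no comparison.

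Forms known mainly from other tissues were dim, with 1 exception in blood cells. Atp6v1g3, a form of subunit G best known from kidney, had signals of 18.8, 5.33 and 1.74 in FBR cells, 40.9, 5.25 and 23.4 in in vitro activated cells and 399.7, 482 and 578 in blood cells. It fell in both conditions, with log2 fold changes of -4.40 ± 0.39 (adjusted p = 3.1e-05) in FBR and -3.78 ± 0.39 (adjusted p = 0.00011) in in vitro activated cells. Its size depends on the pseudocount. With 64 in place of 16, FBR minus blood cells had -2.92 (adjusted p = 5.5e-06). Its second probe set, dim on every array, gave -1.61 ± 0.42 (adjusted p = 0.014) and -0.76 ± 0.42 (adjusted p = 0.22). In both comparisons the markers of B cells and NK cells also fell, and their part in this result was not tested. Atp6v1c2 had signals of 57.1, 55.9 and 47.9 in FBR cells, 38.4, 12.5 and 14.5 in in vitro activated cells and 41.7, 112 and 14.8 in blood cells, and passed in no comparison. Atp6v1g2, known from brain, was below 100 on every array, and its value of -0.93 in FBR minus blood cells lay just outside the threshold. It passed without FBR replicate 3, with -1.19 against blood (adjusted p = 0.026) and -1.14 against in vitro activated cells (adjusted p = 0.047).

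In the V0 sector 5 of 8 subunits rose in FBR cells and 4 in in vitro activated cells. Atp6v0b, a proteolipid of the rotor ring, had signals of 7787, 12007 and 11264 in FBR cells, 7852, 4888 and 6333 in in vitro activated cells and 2969, 1296 and 2344 in blood cells. It rose by 2.28 ± 0.35 (adjusted p = 0.00072) and 1.58 ± 0.35 (adjusted p = 0.0079) in FBR and in vitro activated cells. Its second probe set gave 2.40 ± 0.35 (adjusted p = 0.00057) in FBR minus blood, 0.17 ± 0.35 (adjusted p = 0.77) in in vitro activated minus blood and 2.23 ± 0.35 (adjusted p = 0.0018) in FBR minus in vitro activated cells, so the 2 probe sets differed on in vitro activated cells. Atp6v0c, the main ring proteolipid, rose in FBR cells by 1.72 ± 0.40 (adjusted p = 0.0081), and Atp6v0d1, which joins the ring to the stalk, by 1.27 ± 0.30 (adjusted p = 0.0084). In in vitro activated cells both passed without in vitro activated replicate 2 (1.60, adjusted p = 0.0088, for Atp6v0c and 0.93, adjusted p = 0.044, for Atp6v0d1) and not with it (1.14 and 0.64).

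The a subunits among the members, which hold the proton path and steer the pump to its membrane, moved differently from each other. Tcirg1, an a subunit whose symbol is outside the members, is given below. Atp6v0a1 had signals of 1019, 627 and 519 in FBR cells, 561, 322 and 301 in in vitro activated cells and 143, 105 and 213 in blood cells. It rose by 2.11 ± 0.36 (adjusted p = 0.0014) in FBR and by 1.27 ± 0.36 (adjusted p = 0.027) in in vitro activated cells, and the second call was lost without any 1 of in vitro activated replicate 1 and blood replicates 1 and 2 (log2 fold changes 1.00 to 1.25, adjusted p = 0.067 to 0.09). Atp6v0a2, a form of Golgi and endosomes, had signals of 278, 197 and 193 in FBR cells, 632, 399 and 578 in in vitro activated cells and 312, 253 and 329 in blood cells. Its FBR minus in vitro activated difference was -1.20 ± 0.27 (adjusted p = 0.0095) and that of in vitro activated minus blood cells 0.80 ± 0.27 (adjusted p = 0.052), which passed without in vitro activated replicate 2 (0.99, adjusted p = 0.032). A second probe set gave -0.74 ± 0.24 (adjusted p = 0.051) in FBR minus in vitro activated cells. Atp6v0a4, known from kidney, had signals of 6.76 and 44.2 on FBR replicates 1 and 2, 10.3, 7.12 and 29.4 in in vitro activated cells and 8.11, 9.79 and 51.1 in blood cells, all dim.

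The small e subunits also differed. Atp6v0e1 had 0.31 ± 0.25 (adjusted p = 0.4) in FBR minus blood cells and rose by 1.41 ± 0.25 (adjusted p = 0.0024) in in vitro activated cells, with -1.10 ± 0.25 (adjusted p = 0.01) between FBR and in vitro activated cells. Atp6v0e2 rose by 1.01 ± 0.29 (adjusted p = 0.02) in FBR cells, a call lost without any 1 of FBR replicates 1 and 2 and blood replicate 2 (log2 fold changes 0.77 to 1.01, adjusted p = 0.061 to 0.065), and by 1.35 ± 0.29 (adjusted p = 0.0065) in in vitro activated cells. Between FBR and in vitro activated cells, 3 of 12 V1 subunits (Atp6v1a, Atp6v1d and Atp6v1f) and 2 of 8 V0 subunits (Atp6v0a2 and Atp6v0e1) were lower and none was higher, beside 16.7% and 8.88% of all genes. The median was -0.68 for the V1 and 0.43 for the V0 sector. After median centring Atp6v0a1 and Atp6v0d1 were called higher in FBR cells and only Atp6v1a and Atp6v0a2 lower among the subunits.

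**Figure D5:**
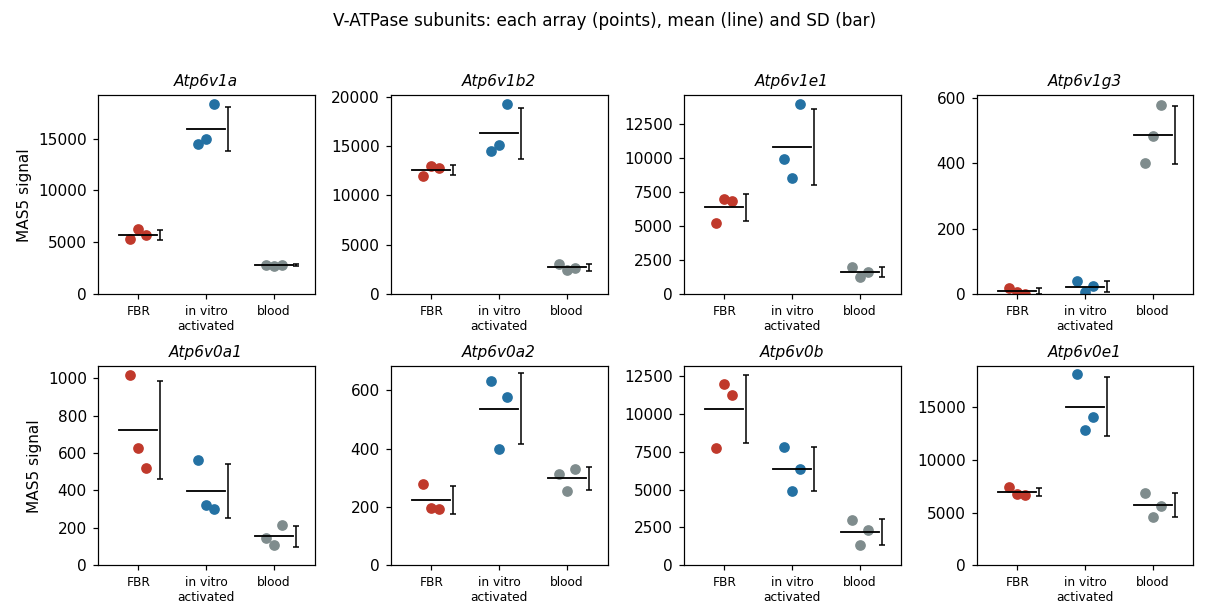
MAS5 signal of 8 V-ATPase subunits on each array (points) in FBR, in vitro activated and blood cells, with the mean (line) and SD (bar), each axis from 0. Atp6v1a, Atp6v1b2, Atp6v1e1, Atp6v0a2 and Atp6v0e1 have the highest mean in in vitro activated cells, Atp6v0a1 and Atp6v0b in FBR cells, and Atp6v1g3 in blood cells.

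The members dim throughout were 4 in number (Atp6v1b1, Atp6v1c2, Atp6v1g2 and Atp6v0a4), with a mean signal under 100 in every group, and the other 41 reached it in at least 1. Of the 70 calls of members in the 3 comparisons, 55 held with each of the 9 arrays left out in turn, and the 15 that did not are given above. For Gaa, Smpd1 and Atp6v0a4, each with a dropped signal, some of these fits leave 1 array in a group.

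Lysosomal genes outside the members were read from 6 lists. Their counts stand beside the shares of all genes given above (14.6% higher and 19.2% lower in FBR minus blood, 15.4% and 12.2% in in vitro activated minus blood, and 8.88% and 16.7% in FBR minus in vitro activated cells). Of 28 other lysosomal hydrolases, 19 rose in FBR cells and none fell, and 17 rose and 2 fell in in vitro activated cells. Pld3, a lysosomal exonuclease, rose by 5.23 ± 0.36 (adjusted p = 8.4e-06) and 5.24 ± 0.36 (adjusted p = 2e-05) in FBR and in vitro activated cells, whereas Acp5, the tartrate-resistant phosphatase, had -2.10 ± 0.46 (adjusted p = 0.0077) in in vitro activated minus blood cells. Relative to in vitro activated cells 3 of the 28 were higher in FBR cells, led by Plbd1 with 3.40 ± 0.30 (adjusted p = 7.7e-05), and 3 lower, led by the arylsulfatase Arsb with -2.54 ± 0.41 (adjusted p = 0.002). The share called higher was near the 8.88% of all genes.

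Of 27 other membrane proteins and transporters, 13 rose and 5 fell in FBR cells, and 13 rose and 3 fell in in vitro activated cells. The shares that fell were near those of all genes (19.2% and 12.2%). The tetraspanin Cd63 rose by 5.13 ± 0.53 (adjusted p = 7.9e-05) and 5.73 ± 0.53 (adjusted p = 7.1e-05) in FBR and in vitro activated cells. Lamp3, known in other species as a marker of mature dendritic cells, ran the other way with -5.39 ± 0.48 (adjusted p = 3.4e-05) and -4.65 ± 0.48 (adjusted p = 0.00013). The study picked Lamp3 for PCR from the transcripts that differed most on these arrays, and reports the same differences by PCR. Its decrease here is therefore not independent evidence. Between FBR and in vitro activated cells 1 was higher, the iron transporter Slc11a2 with 1.5 ± 0.31 (adjusted p = 0.0072), and 4 were lower, led by the amino acid transporter Slc38a9 with -1.88 ± 0.37 (adjusted p = 0.0056). The share called lower was near the 16.7% of all genes.

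Of 12 genes of the pump and its partners outside the members, 4 rose and 2 fell in FBR cells, and 4 rose and 1 fell in in vitro activated cells. The shares that fell were near those of all genes (19.2% and 12.2%). Tcirg1, the a subunit of osteoclasts and lysosomes, rose by 2.20 ± 0.43 (adjusted p = 0.0029) and 1.56 ± 0.43 (adjusted p = 0.022) in FBR and in vitro activated cells. Dmxl1, of the complex that helps to assemble V1 on V0, had -3.79 ± 0.29 (adjusted p = 1.3e-05) and -2.67 ± 0.29 (adjusted p = 0.00015). For FBR against in vitro activated cells 2 were higher, led by Rogdi with 1.05 ± 0.33 (adjusted p = 0.046), and 2 lower, led by the assembly factor Ccdc115 with -1.62 ± 0.30 (adjusted p = 0.0054). The share called lower was near the 16.7% of all genes.

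Of 14 genes of mannose 6-phosphate sorting, 4 rose and 3 fell in FBR cells and 5 rose in in vitro activated cells. The share that fell in FBR cells was near that of all genes (19.2%). Ap1s1, a subunit of the clathrin adaptor of the Golgi, led in FBR cells with 1.45 ± 0.29 (adjusted p = 0.0038), while the adaptor Gga2 had -3.09 ± 0.28 (adjusted p = 3.5e-05). The sorting receptor Sort1 rose by 2.96 ± 0.43 (adjusted p = 0.00084) in in vitro activated cells, and FBR cells lay below these with -2.66 ± 0.43 (adjusted p = 0.0021). In that comparison 4 of the 14 were lower and 1 higher, which was Gga1 with 0.92 ± 0.28 (adjusted p = 0.037).

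Of 19 factors of the TFEB family and of mTORC1 at the lysosome, 10 rose and 2 fell in FBR cells, and 9 rose and 2 fell in in vitro activated cells. The share that fell in in vitro activated cells was near the 12.2% of all genes. Unlike Tfeb itself, its relatives Mitf, Tfec and Tfe3 rose in both conditions. Their log2 fold changes were 3.30, 2.47 and 1.96 in FBR cells and 3.47, 2.90 and 1.38 in in vitro activated cells. Fnip2, a folliculin partner, rose by 4.35 ± 0.36 (adjusted p = 2.2e-05) and 4.37 ± 0.36 (adjusted p = 4.2e-05) in FBR and in vitro activated cells. On the other side stood Mlst8, a subunit of mTORC1, with -1.37 ± 0.27 (adjusted p = 0.0031) in FBR cells, and Lamtor2, of the Ragulator complex, with -1.24 ± 0.24 (adjusted p = 0.0044) in in vitro activated cells. The kinase Mtor was the 1 gene of this list called between FBR and in vitro activated cells, with -0.78 ± 0.23 (adjusted p = 0.035).

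Of 22 autophagy genes, 7 rose and 4 fell in FBR cells, and 5 rose and 3 fell in in vitro activated cells. The share that fell in FBR cells lay near the 19.2% of all genes, and that which fell in in vitro activated cells near their 12.2%. Gabarapl1, of the family that coats autophagosomes, rose by 3.06 ± 0.24 (adjusted p = 1.7e-05) and 2.46 ± 0.24 (adjusted p = 9.4e-05) in FBR and in vitro activated cells. Atg14, a subunit of the kinase complex that starts autophagosomes, had -1.44 ± 0.29 (adjusted p = 0.0034) in FBR cells, and Uvrag, a subunit of the related endosomal complex, -1.5 ± 0.22 (adjusted p = 0.00092) in in vitro activated cells. Between FBR and in vitro activated cells 5 autophagy genes were higher and none lower, led by the initiating kinase Ulk1 with 1.89 ± 0.23 (adjusted p = 0.00051).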

How the data were processed

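CD68+ cells were measured on Affymetrix Rat Genome 230 2.0 arrays. The authors deposited an intensity per probe set, the MAS5 signal on a linear scale, for 31099 probe sets and 9 arrays. They also deposited 3 tables with their own log2 fold changes and adjusted p-values from RMA, which were not used. Whole numbers of 6 or 7 digits were given back their 3 decimals (15.45% of cells), 0.07% were read back from dates, and 1.04% that could be read in several ways were dropped; the files do not say how the decimal points were lost. Gene symbols came from the platform annotation: 20832 probe sets carry 1 symbol, 436 several and 9831 none.

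The log2 of the signal plus 16 was fitted with lmFit and eBayes of limma 3.58.1 in R 4.3.3, with 1 mean per group over all 9 arrays (6 residual degrees of freedom) and no block. Benjamini-Hochberg adjustment ran over all probe sets of a comparison, and calls were made at an adjusted p under 0.05. The number of arrays limits the precision. The procedure was tested on simulated data. Tables and figures were made with Python 3.11.15, numpy 2.4.6, pandas 2.3.3 and matplotlib 3.10.9.

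Members and lists were chosen with earlier results of these data known. Signals on every array are given for the members with the highest and lowest log2 fold change of each role and comparison, those called lower than blood, those with a called probe set of opposite sign, Cd68, Tfeb, Gusb, Scarb2 and Atp6v1b2; Glb1 was added after its values were seen. Of the other lists, the called gene furthest up and furthest down in each comparison is named. Mitf, Tfec and Tfe3 were added after their values were seen. Alternatives were pseudocounts of 1 and 64, a filter at a signal of 100, quantile normalization, median centring, the 6 arrays of a comparison alone, trend and robust eBayes, array weights, restored cells left missing, the average over a gene's probe sets, thresholds of 0.01 and 0.1, the replicate number as a block, each array left out in turn and, chosen after seeing the data, date-like numbers read as signals.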

Additional observations from a re-analysis of the deposited data

How the results depend on the processing

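The counts of 29 members higher and 1 lower (FBR minus blood), 26 and 2 (in vitro activated minus blood), and 3 and 9 (FBR minus in vitro activated) ranged with 1 array left out from 22 to 29 and 1 to 2, from 23 to 28 and 2 to 2, and from 2 to 5 and 5 to 11. At an adjusted p under 0.01, 19 were higher in FBR minus blood and 4 lower in FBR minus in vitro activated cells; under 0.1, 2 were lower in FBR minus blood and 6 higher in FBR minus in vitro activated cells. In FBR minus blood cells 2 were lower after quantile normalization and with array weights, and 3 with the mean of probe sets. In FBR minus in vitro activated cells 6 were higher with a pseudocount of 64, with the filter on low signals and with trend and robust eBayes, 7 with array weights, and 8, with 4 lower, after median centring. With restored cells missing, 21 members could be tested in both comparisons with blood and 24 in the other, and 5 were higher in FBR minus blood, 6 higher and 1 lower in in vitro activated minus blood, and 1 higher and 1 lower in FBR minus in vitro activated cells; fewer genes and arrays were then tested. The restored cells of members were all 6- or 7-digit whole numbers, so this setting drops signals by their size. It can leave 1 array in a group. Lamp2 kept only blood replicate 1, its highest blood array, and had 1.00 in FBR minus blood and 0.82 in in vitro activated minus blood cells. The cause of the other moves was not tested.

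With the replicate number as a block (replicate block), 25 were higher and 2 lower in FBR minus blood, 26 and 2 in in vitro activated minus blood, and 4 and 8 in FBR minus in vitro activated cells. Deviations of same-numbered arrays correlated at -0.065 to 0.07 over the probe sets read on all arrays. No shared effect of the number was seen, but this cannot show that the arrays were unpaired.

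Of 1722 alternative values for the 84 log2 fold changes of the 28 members whose signals are given by array, 1595 kept direction and side of the threshold, 53 no longer passed, 51 newly passed and 23 changed sign, 0 of these with a call on either side. With 1 array left out, the values that changed sign ranged in in vitro activated minus blood cells from -0.37 (blood replicate 2) to 0.22 for Cln3, with -0.08 without in vitro activated replicate 3, from -0.05 (blood replicate 2) to 0.46 for Tfeb and from -0.49 to 0.28 (blood replicate 3) for Atp6v0a4. In FBR minus blood cells they ranged from -0.44 to 0.07 (blood replicate 1) for Tfeb, from -0.31 (blood replicate 3) to 0.72 for Atp6v1c2, and from -0.61 (FBR replicate 2, which leaves 1 FBR array, assumed to vary like the other groups) to 0.79 for Atp6v0a4, with -0.17 and -0.12 without blood replicates 1 and 2. For FBR minus in vitro activated cells the ranges were -0.12 (in vitro activated replicate 1) to 0.30 for Psap, with -0.09 and -0.05 without FBR replicate 2 and in vitro activated replicate 2, -0.06 (in vitro activated replicate 2) to 0.29 for Grn, and -0.41 (FBR replicate 2) to 0.99 for Atp6v0a4. Under other settings the sign changed for Cln3 in in vitro activated minus blood cells (-0.00 with a pseudocount of 64, -0.28 with array weights, -0.39 with restored cells missing), for Man2b1 (0.02 after centring) and Tfeb (0.16 after quantile normalization, 0.22 after centring) in FBR minus blood cells, and for Lamp1 (-0.20 with the mean of probe sets), Psap (-0.22) and Grn (-0.13, both after quantile normalization) in FBR minus in vitro activated cells. The probe set chosen mattered, among others, for Atp6v0b, Atp6v1a and Man2b1. For Atp6v0b the mean over probe sets gave 0.87 (adjusted p = 0.092) in in vitro activated minus blood cells. In FBR minus in vitro activated cells it gave 1.47 (adjusted p = 0.013). Atp6v1a had 0.49 (adjusted p = 0.13) in FBR minus blood cells with this mean. Man2b1 had 0.59 (adjusted p = 0.17) in FBR minus in vitro activated cells. It was called lower in FBR minus blood cells, with -1.08 (adjusted p = 0.016). For Lamp1, Gaa and Atp6v1g3 the sizes changed and the calls did not. Lamp1 had 0.66 in FBR minus blood and 0.86 in in vitro activated minus blood cells. Gaa had 1.76 in FBR minus blood and Atp6v1g3 -2.27 in in vitro activated minus blood cells.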
